A study of Mus musculus with 20 samples.

Results

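Membrane proteins of the hepatocyte move phospholipid and cholesterol into bile and between the liver and blood lipoproteins, and the genes described here encode 6 of them: Abcb4, Atp8b1, Abcg5, Abcg8, Abca1 and Scarb1. The members were the entries of the deposited FPKM table (fragments counted on a gene, scaled for exon length and by a size factor for each library) that bear these gene names, 6 of 54532 entries. All 6 passed the filter on low values that left 14059 entries for testing, and each stood well above it in every group. The series asked how loss of STING, an innate immune adaptor encoded by Tmem173, changes gene expression in livers with blocked bile flow. Polyadenylated liver RNA was sequenced from 4 groups of 5 libraries: STING knockout with bile duct ligation for 7 days (BDL_KO), wild type with the same ligation (BDL_Wt), STING knockout with sham surgery (Sham_KO) and wild type with sham surgery (Sham_Wt). The labels used here give no strain, age, sex, knockout allele or sham interval, and they do not say that livers came from separate animals, so p-values measure the spread between libraries. The series design mentions a further model, Abcb4 deficiency, which was not analysed here.

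Bile salts are detergents, and the canalicular membrane of the hepatocyte survives them because phospholipid and sterol are moved across it in an ordered way. Abcb4 flops phosphatidylcholine to the outer leaflet, from which bile salts take it up into mixed micelles, and Atp8b1, with its subunit Tmem30a, flips phosphatidylserine back to the inner leaflet. Abcg5 and Abcg8 work only as a heterodimer, which secretes cholesterol and plant sterols into bile. On the blood side, Abca1 loads cholesterol and phospholipid onto apolipoprotein A-I to start an HDL particle, and Scarb1, the HDL receptor SR-BI, takes cholesteryl ester out of mature HDL. In people, defects of ABCB4 or ATP8B1 cause inherited cholestasis, and defects of ABCG5 or ABCG8 cause sitosterolemia. The sterol exporters and Abca1 are known targets of the oxysterol receptor LXR, and Abcb4 of the bile acid receptor FXR and of PPAR alpha.

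Abcg5 and Abcg8 are neighbours that are transcribed away from each other. The stretch between their RefSeq start sites, chr17:84683012-84683120 on the plus strand of GRCm38.p6, is 109 bases long and is shown because the transcripts on either side of it moved together. Abcg5 begins at position 84683011 and runs to the left, and Abcg8 begins at position 84683121 and runs to the right. Capitals mark TTATC, which on the other strand reads GATAA and is the core of the GATA box.
Abcg5-Abcg8: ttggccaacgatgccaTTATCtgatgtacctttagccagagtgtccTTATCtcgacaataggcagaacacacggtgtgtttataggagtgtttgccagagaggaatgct
The 2 matches start at bases 17 and 47 of the stretch. Of 32851 RefSeq promoters, 9.36% held GATAA on either strand in the last 109 bases before the start and 0.788% held it at least 2 times. The stretch also held TATAAA on the other strand, from base 79, found in 5.9% of promoters over the same length. The nuclear receptor half-site AGGTCA had no match on either strand, nor did the E-box CACGTG, nor the spaced repeat described next.

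LXR binds with RXR to a direct repeat of half-sites spaced by 4 bases, searched on both strands in the loose form GGTNA, any 5 bases, then GGTNA again. Upstream of Abca1 a match lay 67 to 53 bases before the start, on the other strand. It is shown because Abca1 is used as a marker of LXR activity. These 30 bases are chr4:53159940-53159969 on the minus strand of GRCm38.p6, with the match in capitals as it reads along the gene.
Abca1: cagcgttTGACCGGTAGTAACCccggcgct
Of the same promoters, 0.621% held this motif in the 250 bases before the start. A match is a description of the letters and not evidence that a factor binds there. RefSeq promoter entries were matched for 4 of the 6 members, with Scarb1 and Atp8b1 named only.

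In GENCODE M21 on GRCm38, Abcb4 (ENSMUSG00000042476.12) lies on chromosome 5 from 8893717 to 8959231 on the plus strand, and Scarb1 (ENSMUSG00000037936.15) on chromosome 5 from 125277087 to 125341094 on the minus strand. Abcg5 (ENSMUSG00000040505.13) spans 84658234 to 84683011 on the minus strand of chromosome 17, and Abcg8 (ENSMUSG00000024254.15) spans 84676302 to 84700333 on its plus strand. The longest annotated form of Abcg8 overlaps Abcg5, and the pair shares 82 exonic bases, 3.02% of the exonic length of Abcg5 and 2.19% of that of Abcg8. The sources used here do not say whether counting used strand, so fragments in those bases cannot be assigned to one gene. Abca1 (ENSMUSG00000015243.4) lies on chromosome 4 from 53030787 to 53159895, and Atp8b1 (ENSMUSG00000039529.9) on chromosome 18 from 64528967 to 64661267, both on the minus strand. Abcb4 also resembles its paralogs Abcb1a and Abcb1b, and the sources used here do not say how shared fragments were counted.

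The libraries held 14.95 to 20.9 M assigned fragments, and each member value rested on 271 to 11459 fragments. Tmem173 averaged 1.42 ± 0.76 FPKM in BDL_KO against 3.64 ± 0.86 in BDL_Wt, and 0.743 ± 0.189 in Sham_KO against 1.71 ± 0.54 in Sham_Wt (SD, n = 5 each). Transcript therefore remained in knockout livers, and the sources used here do not say which exons the allele removes. Libraries BDL_KO_2248 and BDL_KO_2359 stood apart from the other 3. The summed level of 10 hepatocyte markers was 47720 and 39495 FPKM in these libraries, 26404 to 32083 in the other BDL_KO libraries and 19030 to 28504 in BDL_Wt, against 43378 to 54727 in Sham_KO and 39199 to 55008 in Sham_Wt. The sum of 12 cholangiocyte markers was 71.1 and 99.2 FPKM in libraries BDL_KO_2248 and BDL_KO_2359, 367 to 595 in the other BDL_KO libraries and 253 to 646 in BDL_Wt, against 34.7 to 44.3 in Sham_KO and 30.9 to 40.4 in Sham_Wt. The ligation differences of the members in knockout livers, and the counts of related lists there, are therefore given with and without this pair. The pair was picked in these data by markers that also moved with ligation. A fit without it is therefore no independent support for a ligation response. Leaving out the pair also changed the calls over all genes, from 418 to 1041 for knockout after sham surgery and from 53 to 178 for the interaction. The share of all genes called for ligation in knockout livers in that fit is not given here. A changed list count without the pair is therefore not a result particular to that list. Ligation lowered 5 and raised 0 of the 10 hepatocyte markers in wild type livers, and in bulk RNA fewer hepatocytes and less RNA per hepatocyte cannot be told apart. Every group mixed libraries with Y-linked transcripts and libraries with Xist.

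**Figure D1:**
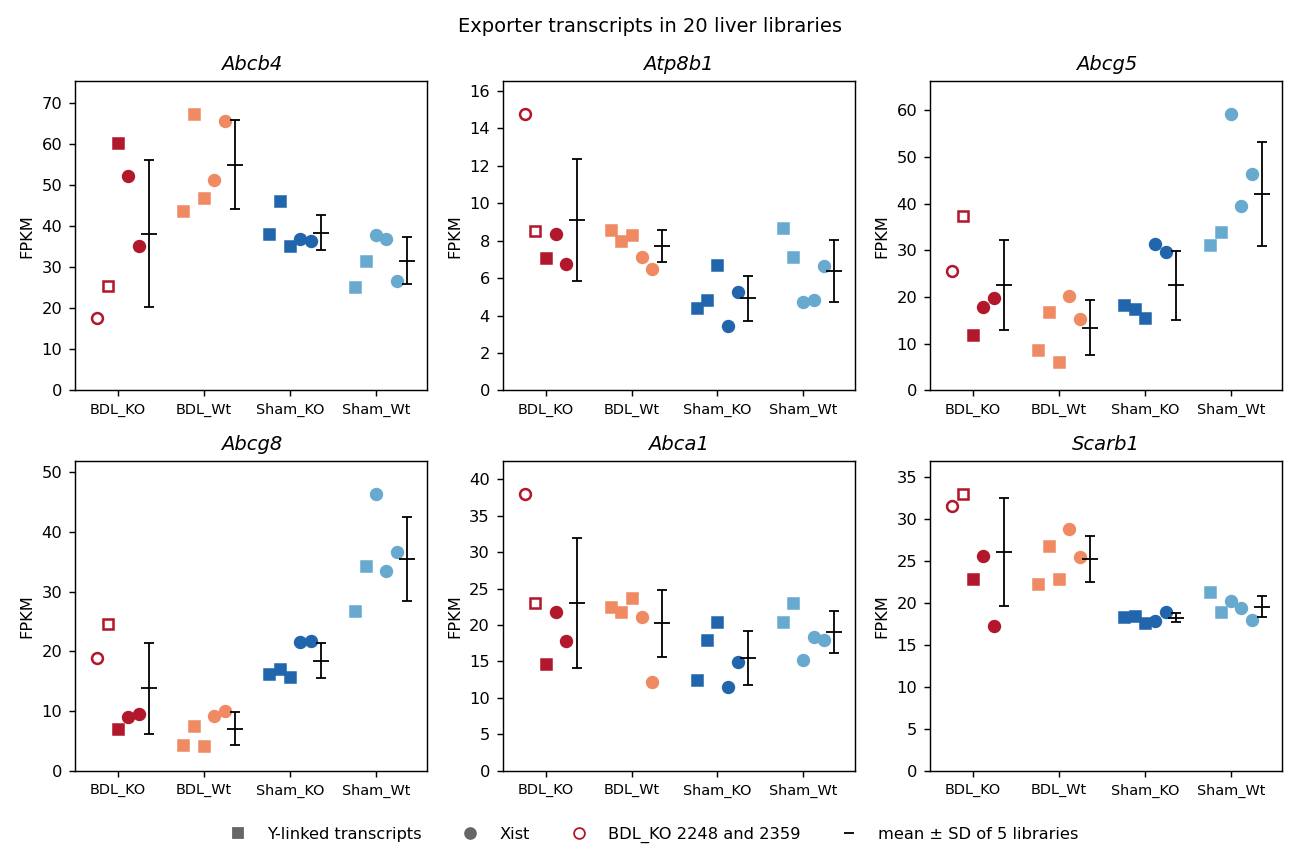
FPKM (linear axis from 0) of the 6 exporters in each of 20 liver libraries, grouped as BDL_KO, BDL_Wt, Sham_KO and Sham_Wt, with squares for libraries with Y-linked transcripts, circles for libraries with Xist, open symbols for BDL_KO_2248 and BDL_KO_2359, and the mean ± SD of 5 libraries to the right of each group. Abcg8 is at 4.09 to 10.1 FPKM in BDL_Wt against 26.7 to 46.3 in Sham_Wt, and Abcb4 is at 43.8 to 67.2 in BDL_Wt against 25.1 to 37.9 in Sham_Wt.

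Ligation moved the phosphatidylcholine floppase Abcb4 and the sterol exporter pair Abcg5 and Abcg8 of wild type livers in opposite directions. Abcb4 and Scarb1 rose, Abcg5 and Abcg8 fell, and Atp8b1 and Abca1 did not pass the test. Of all tested genes, 35.6% passed in either direction (limma on log2(FPKM + 0.5), Benjamini-Hochberg adjusted p under 0.05), 18.1% higher and 17.5% lower. In the same wild type groups, the 4 members that passed were also the ones whose groups did not overlap, beside 16.6% of genes wholly higher and 15.1% wholly lower. In STING knockout livers, ligation raised Atp8b1 and Scarb1 and no member passed as lower, where 25.1% of genes passed, 12.3% higher and 12.9% lower. The groups did not overlap for Atp8b1, beside 5.85% of genes wholly higher and 5.72% wholly lower. Without libraries BDL_KO_2248 and BDL_KO_2359, Atp8b1 was still called higher, Abcg8 was called lower and Scarb1 lost its call. These calls are not independent support, because the pair was set apart by marker sums nearer to sham levels. The share of all genes called in that fit is not given here. The median log2 difference of the 6 genes was 0.21 in knockout livers and 0.17 in wild type livers, against −0.01 and −0.02 over all tested genes.

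Abcb4, the phosphatidylcholine floppase, was the most abundant of the 6 transcripts in ligated wild type livers. Its level was 43.8, 67.2, 46.8, 51.3 and 65.5 FPKM in BDL_Wt (libraries BDL_Wt_2233, BDL_Wt_2235, BDL_Wt_2236, BDL_Wt_2237 and BDL_Wt_2240), against 25.1, 31.5, 37.9, 36.8 and 26.6 FPKM in Sham_Wt (libraries Sham_Wt_2223, Sham_Wt_2224, Sham_Wt_2227, Sham_Wt_2228 and Sham_Wt_2229). Every ligated library lay above every sham library. The log2 difference was 0.79 ± 0.25 (SE), a 1.72-fold higher level with a 95% interval of 1.2 to 2.47 and an adjusted p of 0.0179 (limma). It was 0.86 (adjusted p = 0.101) among libraries with Y-linked transcripts alone and 0.79 (adjusted p = 0.252) among those with Xist alone.

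The same transcript was scattered in ligated knockout livers. Abcb4 stood at 17.7, 25.5, 60.3, 52.2 and 35.1 FPKM in BDL_KO (libraries BDL_KO_2248, BDL_KO_2359, BDL_KO_2365, BDL_KO_2370 and BDL_KO_2371), against 38, 46, 35.1, 36.8 and 36.3 FPKM in Sham_KO (libraries Sham_KO_2347, Sham_KO_2349, Sham_KO_2350, Sham_KO_2352 and Sham_KO_2353). The lowest values were those of libraries BDL_KO_2248 and BDL_KO_2359, whose hepatocyte marker sums were the highest of the ligated libraries; the part of cell composition in this value was not tested. The group mean was 38.2 ± 17.9 FPKM in BDL_KO and 38.4 ± 4.4 in Sham_KO (SD, n = 5 each). In log2 units the difference was −0.14 ± 0.25 (limma adjusted p = 0.72), with a fold interval of 0.634 to 1.3, and it was 0.32 (adjusted p = 0.186) without that pair of libraries.

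Between genotypes, Abcb4 did not pass the test after either surgery. After ligation, the mean of 38.2 ± 17.9 FPKM in BDL_KO stood against 54.9 ± 10.8 in BDL_Wt (SD, n = 5 each), a log2 difference of −0.63 ± 0.25 (limma adjusted p = 0.115). That difference was −0.83 (adjusted p = 0.0247) without library BDL_KO_2365 and −0.78 (adjusted p = 0.0426) without library BDL_KO_2370, whereas without both BDL_KO_2248 and BDL_KO_2359 it was −0.17 (adjusted p = 0.65). After sham surgery, 38.4 ± 4.4 FPKM in Sham_KO stood against 31.6 ± 5.8 in Sham_Wt, a log2 difference of 0.29 ± 0.25 (adjusted p = 0.589).

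Atp8b1, the aminophospholipid flippase, rose with ligation in knockout livers and was the least abundant member there. It measured 14.7, 8.49, 7.06, 8.35 and 6.77 FPKM in BDL_KO, against 4.38, 4.85, 6.71, 3.42 and 5.24 FPKM in Sham_KO, with libraries in the order given for Abcb4, as for the genes that follow. The groups did not overlap, but the highest Sham_KO library lay just under the lowest BDL_KO library. The log2 difference was 0.79 ± 0.20 (1.73-fold, interval 1.30 to 2.31, limma adjusted p = 0.00678), and it was 0.57 (adjusted p = 0.0252) without libraries BDL_KO_2248 and BDL_KO_2359. Within the Y-linked libraries it was 0.52 (adjusted p = 0.109), and within the Xist libraries it was 1.07 (adjusted p = 0.0907).

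In wild type livers the values of Atp8b1 overlapped. They were 8.54, 8, 8.29, 7.12 and 6.49 FPKM in BDL_Wt, against 8.65, 7.13, 4.71, 4.82 and 6.66 FPKM in Sham_Wt. On the log2 scale the groups differed by 0.28 ± 0.20 (limma adjusted p = 0.3), with a fold interval of 0.909 to 1.61. It passed the test when values were rescaled to TPM (0.61, adjusted p = 0.0158), to total fragments (0.46, adjusted p = 0.0483) or weighted by library quality (0.41, adjusted p = 0.03). The difference between the responses of the genotypes was 0.52 ± 0.28 (adjusted p = 0.471).

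Tmem30a, the subunit that Atp8b1 needs to leave the endoplasmic reticulum, did not rise with it. Its level was 34.7 ± 5.8 FPKM in BDL_KO and 28 ± 1.1 in BDL_Wt, against 41.8 ± 4.4 in Sham_KO and 43.2 ± 2.7 in Sham_Wt (SD, n = 5 each). In wild type livers Tmem30a fell by 0.61 ± 0.10 on the log2 scale (limma adjusted p = 0.000149). The ratio of Atp8b1 to Tmem30a within a library was 0.187 to 0.345 in BDL_KO against 0.0979 to 0.144 in Sham_KO, and 0.224 to 0.311 in BDL_Wt against 0.115 to 0.196 in Sham_Wt. The ligated and sham ratios did not overlap in either genotype. In log2 units the ratio was higher by 1.07 in knockout livers and by 0.89 in wild type livers, each with p = 0.00794, the smallest that an exact two-sided permutation test of 5 against 5 can give, and adjusted p = 0.0212 over 8 ratio tests. Without libraries BDL_KO_2248 and BDL_KO_2359 it was higher by 0.97 in knockout livers (exact permutation adjusted p = 0.0357). Between knockout and wild type the log2 ratio differed by −0.29 after sham surgery (exact permutation adjusted p = 0.165) and by −0.11 after ligation (adjusted p = 0.599).

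Abcg5 and Abcg8, the partners of the sterol exporter, had the largest ligation differences of the 6 genes in wild type livers. Abcg8 stood at 4.25, 7.52, 4.09, 9.25 and 10.1 FPKM in BDL_Wt, against 26.7, 34.4, 46.3, 33.5 and 36.6 FPKM in Sham_Wt. The lowest sham library, at 26.7 FPKM, stood far above the highest ligated library, at 10.1 FPKM. The log2 difference was −2.32 ± 0.30, a fold of 0.2 (interval 0.13 to 0.308, limma adjusted p = 1.25e-05). Abcg5 stood at 8.66, 16.9, 6.16, 20.2 and 15.4 FPKM in BDL_Wt, against 31.3, 33.9, 59.2, 39.6 and 46.5 FPKM in Sham_Wt, again without overlap. Its log2 difference was −1.69 ± 0.32, a fold of 0.31 (interval 0.195 to 0.492, adjusted p = 0.00047). Both genes passed as lower under each of the 36 alternatives, with log2 differences from −2.49 to −1.94 for Abcg8 and from −1.87 to −1.4 for Abcg5. Among these alternatives, median-ratio scaling only repeats the main fit. The hepatocyte marker genes had a median log2 difference of −0.63 in the same comparison; their part in the fall of the exporter was not tested.

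In ligated knockout livers, libraries BDL_KO_2248 and BDL_KO_2359 carried the highest levels of both genes. Abcg8 stood at 19, 24.7, 6.98, 8.98 and 9.45 FPKM in BDL_KO, against 16.1, 17, 15.8, 21.6 and 21.8 FPKM in Sham_KO. The values of libraries BDL_KO_2248 and BDL_KO_2359 lay within or above the sham range, and the other 3 lay below all sham values. In log2 units the difference was −0.55 ± 0.30 (limma adjusted p = 0.185) with all libraries and −1.08 (adjusted p = 0.00301) without libraries BDL_KO_2248 and BDL_KO_2359, and it also passed without BDL_KO_2359 alone (−0.79, adjusted p = 0.0368). Abcg5 stood at 25.7, 37.4, 11.9, 18 and 19.8 FPKM in BDL_KO, against 18.4, 17.4, 15.6, 31.3 and 29.8 FPKM in Sham_KO. Its log2 difference was −0.04 ± 0.32 (adjusted p = 0.949) and −0.40 (adjusted p = 0.377) without that pair, so its groups overlapped in either case.

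Sham-operated knockout livers held about 0.53 times the wild type level of both genes, a difference that did not pass the test over all genes. Abcg8 averaged 18.5 ± 3.0 FPKM in Sham_KO and 35.5 ± 7.1 in Sham_Wt (SD, n = 5 each), and the groups did not overlap, as for 4.58% of genes that were wholly lower and 3.49% wholly higher. The log2 difference was −0.92 ± 0.30 (fold 0.53, interval 0.344 to 0.815, limma adjusted p = 0.108). Abcg5 averaged 22.5 ± 7.4 FPKM in Sham_KO and 42.1 ± 11.2 in Sham_Wt, with the highest knockout library at 31.32 FPKM just above the lowest wild type library at 31.26. Its log2 difference was −0.91 ± 0.32 (fold 0.532, interval 0.335 to 0.847, adjusted p = 0.137). When the fit held the sham groups alone, both passed, with adjusted p of 0.00684 for Abcg8 and 0.0473 for Abcg5. Abcg8 also passed without libraries BDL_KO_2248 and BDL_KO_2359 (adjusted p = 0.0174) and with array weights (adjusted p = 0.0246). Libraries BDL_KO_2248 and BDL_KO_2359 are in neither sham group. Without them the log2 difference stayed at −0.92, while the estimate of spread shared by all groups changed. Calls over all genes for this comparison went from 418 to 1041 without that pair and to 1234 with array weights. Within library types, Abcg8 averaged 16.3 FPKM in Sham_KO and 30.5 in Sham_Wt among Y-linked libraries, and 21.7 FPKM in Sham_KO and 38.8 in Sham_Wt among Xist libraries. Neither gene passed within a library type. The limma adjusted p was 0.532 (Y-linked) and 0.408 (Xist) for Abcg8, and 0.548 (Y-linked) and 0.379 (Xist) for Abcg5.

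After ligation the means of the genotypes stood in the opposite order, and neither gene passed the test. Abcg8 averaged 13.8 ± 7.6 FPKM in BDL_KO and 7.04 ± 2.78 in BDL_Wt, a log2 difference of 0.85 ± 0.30 (limma adjusted p = 0.0779). Abcg5 averaged 22.5 ± 9.6 FPKM in BDL_KO and 13.5 ± 5.9 in BDL_Wt, a log2 difference of 0.74 ± 0.32 (adjusted p = 0.154). The groups overlapped for both genes. Without libraries BDL_KO_2248 and BDL_KO_2359, the differences were 0.33 (adjusted p = 0.495) for Abcg8 and 0.38 (adjusted p = 0.572) for Abcg5, while without library BDL_KO_2365 that of Abcg8 was 1.05 (adjusted p = 0.0262) and without library BDL_KO_2370 it was 0.96 (adjusted p = 0.0481).

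Abcg5 and Abcg8 did not change by the same amount. Within a library, the ratio of Abcg5 to Abcg8 was 1.35 to 2.09 in BDL_KO against 0.988 to 1.45 in Sham_KO, and 1.51 to 2.24 in BDL_Wt against 0.987 to 1.28 in Sham_Wt. In wild type livers the ratios did not overlap, and the log2 ratio was 0.86 ± 0.27 in BDL_Wt and 0.23 ± 0.15 in Sham_Wt (SD, n = 5 each), a difference of 0.63 (exact two-sided permutation p = 0.00794, adjusted p = 0.0212). In knockout livers the log2 ratio was 0.75 ± 0.25 in BDL_KO and 0.23 ± 0.24 in Sham_KO, a difference of 0.51 (exact permutation p = 0.0238, adjusted p = 0.0476), and 0.67 (adjusted p = 0.0357) without libraries BDL_KO_2248 and BDL_KO_2359. The call in knockout livers was lost in 8 of 20 fits that left out 1 library. That test uses knockout libraries only, so leaving out a wild type library does not change its p. All 8 losses came from leaving out 1 of the 5 Sham_KO or 5 BDL_KO libraries. The genotypes differed by 0.01 after sham surgery (exact permutation adjusted p = 0.952) and by −0.11 after ligation (adjusted p = 0.599).

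**Figure D2:**
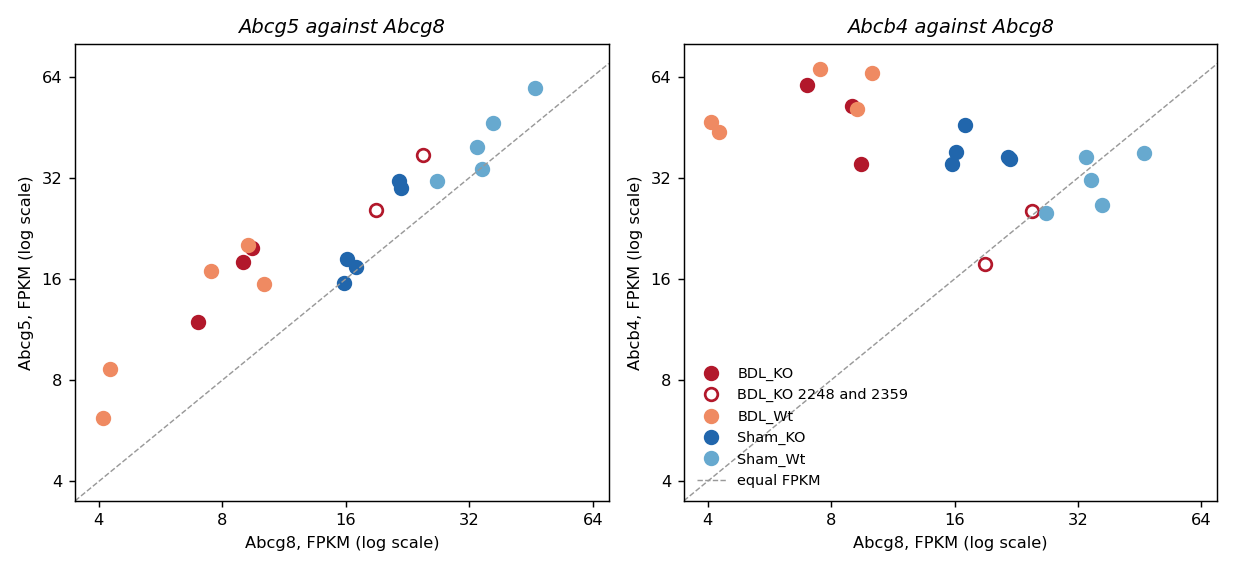
FPKM of Abcg5 (left) and of Abcb4 (right) against FPKM of Abcg8 in 20 liver libraries, both axes on a log scale, coloured by group, with open circles for BDL_KO_2248 and BDL_KO_2359 and a dashed line at equal FPKM. Abcg5 and Abcg8 lie along one band, while the ratio of Abcb4 to Abcg8 is 5.55 to 11.5 in BDL_Wt against 0.728 to 1.1 in Sham_Wt.

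The balance of floppase and sterol exporter transcripts within a library is given by the ratio of Abcb4 to Abcg8. This ratio had a median of 3.72 in BDL_KO (range 0.932 to 8.63) and 8.94 in BDL_Wt (range 5.55 to 11.5), against 2.22 in Sham_KO (range 1.66 to 2.71) and 0.917 in Sham_Wt (range 0.728 to 1.1). The 4 groups of ratios overlapped only through BDL_KO, where libraries BDL_KO_2248 and BDL_KO_2359 gave the low values. Across 20 libraries Abcg5 and Abcg8 had a Pearson r of 0.937 on log2(FPKM + 0.5), and 0.903 on deviations from group means. Abcb4 and Abcg8 had an r of −0.614, and −0.366 on deviations. These values describe libraries that share groups and depth and carry no test.

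Abca1, which starts HDL particles, did not pass the test in either genotype. It measured 22.4, 21.8, 23.7, 21.1 and 12.2 FPKM in BDL_Wt, against 20.5, 23, 15.3, 18.4 and 17.9 FPKM in Sham_Wt. The groups overlapped, with a log2 difference of 0.07 ± 0.22 (fold interval 0.758 to 1.45, limma adjusted p = 0.848). In knockout livers it measured 37.9, 23.1, 14.7, 21.9 and 17.8 FPKM in BDL_KO, against 12.5, 17.9, 20.4, 11.5 and 14.9 FPKM in Sham_KO. Library BDL_KO_2248 alone exceeded all others in the series. On the log2 scale the groups differed by 0.52 ± 0.22 (fold 1.43, interval 1.04 to 1.98, adjusted p = 0.0957), and 0.23 (adjusted p = 0.419) without libraries BDL_KO_2248 and BDL_KO_2359. It passed without library BDL_KO_2365 (0.66, adjusted p = 0.0428), as TPM (0.70, adjusted p = 0.0201) and with total fragments (0.57, adjusted p = 0.0405). Between genotypes, the log2 difference of Abca1 was 0.14 ± 0.22 after ligation (adjusted p = 0.744) and −0.31 ± 0.22 after sham surgery (adjusted p = 0.514).

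Scarb1, the HDL receptor, rose modestly with ligation in both genotypes. It measured 31.5, 32.9, 22.9, 25.6 and 17.2 FPKM in BDL_KO, against 18.4, 18.4, 17.6, 17.8 and 18.9 FPKM in Sham_KO. One ligated library, BDL_KO_2371, lay below the narrow sham range. The log2 difference was 0.47 ± 0.13 (1.38-fold, interval 1.14 to 1.67, limma adjusted p = 0.0137), and it was 0.24 (adjusted p = 0.0957) without libraries BDL_KO_2248 and BDL_KO_2359 and 0.47 (adjusted p = 0.0854) when only the groups compared were fitted. In wild type livers Scarb1 measured 22.2, 26.7, 22.9, 28.8 and 25.5 FPKM in BDL_Wt, against 21.3, 18.9, 20.3, 19.4 and 17.9 FPKM in Sham_Wt. The groups did not overlap, and the log2 difference was 0.35 ± 0.13 (1.28-fold, interval 1.06 to 1.54, adjusted p = 0.0397). That call was near the threshold: it was lost in 7 of 20 fits without 1 library (Sham_Wt_2224, Sham_Wt_2227, Sham_Wt_2228, Sham_Wt_2229, BDL_Wt_2235, BDL_Wt_2237 or BDL_Wt_2240), with adjusted p of up to 0.0964, and without a filter on low values (adjusted p = 0.0732). The wild type call was also lost within Y-linked libraries (0.24, limma adjusted p = 0.325) and within Xist libraries (0.49, adjusted p = 0.219). It was kept as TPM (adjusted p = 0.000179), with total fragments (adjusted p = 0.000552) and with quantile normalization (adjusted p = 0.00242). The knockout call was lost within Y-linked libraries (adjusted p = 0.0649) and within Xist libraries (adjusted p = 0.349). Between genotypes Scarb1 differed by 0.01 ± 0.13 after ligation (adjusted p = 0.96) and by −0.10 ± 0.13 after sham surgery (adjusted p = 0.758).

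**Figure D3:**
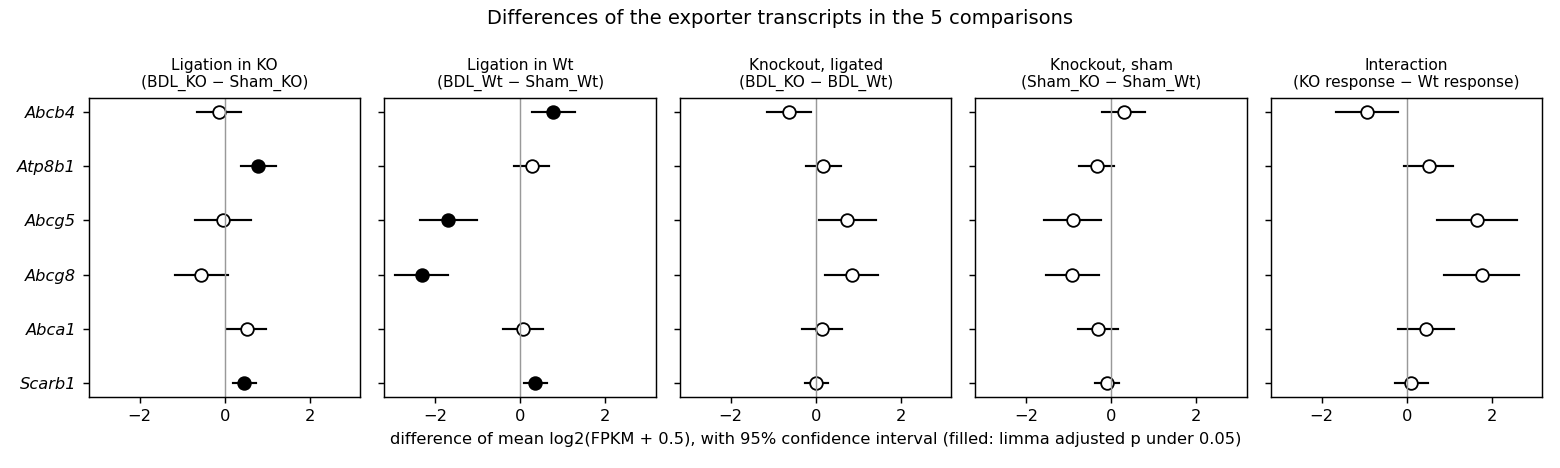
Difference of mean log2(FPKM + 0.5) for the 6 exporters in each of 5 comparisons (points) with the 95% confidence interval (lines), filled where the limma adjusted p was under 0.05. The filled points are Atp8b1 and Scarb1 for ligation in knockout livers, and Abcb4, Abcg5, Abcg8 and Scarb1 for ligation in wild type livers.

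No member passed the test in either comparison of genotypes or in the interaction, which asks whether ligation acted differently in knockout and wild type livers. The shares of all genes that passed were 8.83% after ligation (3.46% higher, 5.37% lower), 2.97% after sham surgery (1.31% higher, 1.66% lower) and 0.377% for the interaction (0.156% higher, 0.22% lower). After ligation all 6 members overlapped between genotypes, beside 2.17% of genes wholly higher and 3.33% wholly lower. At an unadjusted p under 0.05 in limma, 3 of 6 members passed after ligation, 2 after sham surgery and 3 in the interaction, against 24.6%, 17.4% and 12.6% of all genes. A fit with voom on recovered fragments also called 0 members in these 3 comparisons.

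The interaction had its largest values for the sterol exporter. It was 1.77 ± 0.42 (95% interval 0.89 to 2.65, limma adjusted p = 0.083) for Abcg8 and 1.65 ± 0.45 (interval 0.71 to 2.60, adjusted p = 0.133) for Abcg5 in log2 units. It was −0.93 ± 0.35 (interval −1.66 to −0.19, adjusted p = 0.255) for Abcb4. Abcg8 passed when 1 library was left out in 3 of 20 fits: without BDL_KO_2365 (adjusted p = 0.038), without BDL_KO_2370 (adjusted p = 0.0424) and without BDL_Wt_2237 (adjusted p = 0.0494). Without libraries BDL_KO_2248 and BDL_KO_2359 the interaction was 1.24 (adjusted p = 0.0775) for Abcg8, 1.29 (adjusted p = 0.184) for Abcg5 and −0.46 (adjusted p = 0.4) for Abcb4.

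The order of the members by FPKM, which is a level per exon length, differed between groups. In BDL_KO the order of the means was Abcb4, Scarb1, Abca1, Abcg5, Abcg8 and Atp8b1, and the ranges of all neighbours overlapped. In BDL_Wt it was Abcb4, Scarb1, Abca1, Abcg5, Atp8b1 and Abcg8, with Abcb4 clear of Scarb1 and the other neighbours overlapping. In Sham_KO it was Abcb4, Abcg5, Abcg8, Scarb1, Abca1 and Atp8b1, with Abcb4 above all values of Abcg5, and Atp8b1 below all values of Abca1. In Sham_Wt it was Abcg5, Abcg8, Abcb4, Scarb1, Abca1 and Atp8b1, with Abcb4 above all values of Scarb1, and Atp8b1 again below all values of Abca1. Abcg8 thus ranked last in BDL_Wt and next to the top in Sham_Wt.

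For each exporter, the 3 protein-coding genes with the most similar pattern over 20 libraries were taken from 9876 genes by Pearson r on log2(FPKM + 0.5). For Abcg8 they were Usf2 (0.949), Abcg5 (0.937) and Cd1d1 (0.927), and for Abcg5 they were Nrn1 (0.942), Abcg8 (0.937) and Agtr1a (0.908). Scarb1 was followed closely by Sqle (0.914) and Srebf2 (0.909). Abca1 was nearest to Ptpn3 (0.927), Celf1 (0.872) and Ube3c (0.857), and Atp8b1 to Slc41a1 (0.891), Tle3 (0.89) and Slc41a2 (0.88). Abcb4 had the loosest neighbours, Hexa (0.865), Ostf1 (0.856) and Mmp15 (0.837). All of these r were still 0.76 or more without libraries BDL_KO_2248 and BDL_KO_2359. Between members, Atp8b1 and Abca1 had an r of 0.85, and 0.831 on deviations from group means.

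Other canalicular and biliary exporters and lipid transfer proteins, taken as 1 list, did not share one direction. Of 9 tested genes, 3 rose and 1 fell with ligation in knockout livers, and 2 rose and 3 fell in wild type livers. Beside this list and those that follow stand the shares over all tested genes. With ligation these were 12.3% higher and 12.9% lower in knockout livers, and 18.1% higher and 17.5% lower in wild type livers. In knockout livers, 3 rose and 3 fell without libraries BDL_KO_2248 and BDL_KO_2359. Abcb1a, a multidrug exporter and paralog of Abcb4, measured 3.05 ± 1.42 FPKM in BDL_KO against 0.531 ± 0.327 in Sham_KO (log2 difference 1.76 ± 0.29, limma adjusted p = 0.000293), and 4.14 ± 1.4 in BDL_Wt against 0.97 ± 0.495 in Sham_Wt (1.68 ± 0.29, adjusted p = 0.000191). Pctp, which carries phosphatidylcholine between membranes, measured 24.8 ± 6.0 FPKM in BDL_KO against 49.4 ± 6.9 in Sham_KO (a log2 value that fell by 1 ± 0.18, adjusted p = 0.000632), and 20.6 ± 4.5 in BDL_Wt against 44.1 ± 9.3 in Sham_Wt (−1.08 ± 0.18, adjusted p = 0.000143). Npc2, a sterol carrier, rose in both genotypes, by 0.46 in knockout and 0.56 in wild type livers. Abcb11, the bile salt export pump, measured 162 ± 64 FPKM in BDL_KO and 115 ± 18 in BDL_Wt, against 148 ± 12 in Sham_KO and 149 ± 13 in Sham_Wt (SD, n = 5 each).

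Relatives of the members in the wider transporter families were called in both directions, with more P4-ATPases higher than lower. Some genes, such as Tmem30a, Npc2, Abcg1 and Pltp, are on several of the lists given here and are counted in each. Of 11 tested P4-ATPases and subunits other than Atp8b1, 4 rose and 0 fell with ligation in knockout livers, and 7 rose and 2 fell in wild type livers. The knockout count was 7 higher and 1 lower without libraries BDL_KO_2248 and BDL_KO_2359. Atp11a, a phosphatidylserine flippase of the cell surface, rose by 0.80 in knockout livers (limma adjusted p = 0.0059) and by 1 in wild type livers (adjusted p = 0.000548). Of 11 other ABCA and ABCG genes, 2 rose and 2 fell in each genotype, and 5 rose and 2 fell in knockout livers without that pair of libraries. Abcg1, which exports cholesterol to HDL, measured 5.07 ± 3.03 FPKM in BDL_KO against 1.49 ± 0.35 in Sham_KO (1.31 ± 0.29, adjusted p = 0.0033, and 1.78 without that pair), and 6.43 ± 1.33 in BDL_Wt against 2.57 ± 0.48 in Sham_Wt (1.17 ± 0.29, adjusted p = 0.00413). Abcg1 is also abundant in macrophages, and the sum of 12 monocyte and macrophage markers was 67.7 to 379 FPKM in BDL_KO against 79.6 to 140 in Sham_KO, and 315 to 410 in BDL_Wt against 61.8 to 114 in Sham_Wt; its part was not tested.

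Genes of the receptors that control these exporters were lower or did not pass. Of 11 genes for LXR, FXR and their partners, 4 fell with ligation in knockout livers and 5 fell in wild type livers, and 0 rose. The knockout count was 7 lower and 0 higher without libraries BDL_KO_2248 and BDL_KO_2359. Ppara, the fatty acid receptor, measured 10.6 ± 2.0 FPKM in BDL_KO against 20.8 ± 7.4 in Sham_KO (−0.89 ± 0.20, limma adjusted p = 0.00334), and 9.29 ± 1.67 in BDL_Wt against 20.2 ± 3.9 in Sham_Wt (−1.07 ± 0.20, adjusted p = 0.000381). Nr1h3, which encodes LXR alpha, fell by 0.28 in knockout livers (adjusted p = 0.0485, and 0.0737 without libraries BDL_KO_2248 and BDL_KO_2359) and fell by 0.28 in wild type livers (adjusted p = 0.0347). The difference of Nr1h3 in wild type livers was 0.04 when values were rescaled to TPM, and that of Rxra, the partner of LXR and FXR, was 0.05 with quantile normalization, although both were called lower as deposited.

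LXR target genes outside the members moved in both directions. Of 12 tested, 4 rose and 2 fell with ligation in knockout livers, and 5 rose and 5 fell in wild type livers. Without libraries BDL_KO_2248 and BDL_KO_2359, 7 rose and 1 fell in knockout livers, and the median log2 difference of the list there was 0.77 in place of 0.43. The share of all genes called there without that pair is not given here. Between genotypes, 3 were higher and 2 lower after ligation, and 1 higher and 1 lower after sham surgery, against 3 higher and 0 lower after ligation and 1 higher and 3 lower after sham surgery without that pair. Over all tested genes, with all libraries, 3.46% were higher and 5.37% lower after ligation, and 1.31% higher and 1.66% lower after sham surgery. Srebf1, the master factor of fatty acid synthesis, measured 48.5 ± 25.7 FPKM in BDL_KO and 18.4 ± 4.2 in BDL_Wt, against 16 ± 3.4 in Sham_KO and 41 ± 14.8 in Sham_Wt (SD, n = 5 each). Its interaction was 2.54 ± 0.42 (limma adjusted p = 0.0171), and that of Fasn, fatty acid synthase, was 1.83 ± 0.28 (adjusted p = 0.0119); these were the only 2 genes of the lists described here that passed the interaction with all libraries. Both passed it without the pair as well, as did 1 gene each on the lists of other ABCA and ABCG genes, HDL formation and cellular cholesterol handling. After sham surgery Srebf1 was lower in knockout livers by a log2 difference of −1.29 ± 0.29 (adjusted p = 0.0229), in the same direction as the values of Abcg5 and Abcg8. Mylip, the other LXR target called in that comparison, went the opposite way and was higher by 0.50 ± 0.11 (limma adjusted p = 0.0203). Of 10 FXR target genes, 1 rose and 1 fell in knockout livers, and 2 rose and 2 fell in wild type livers. Without the pair, 2 rose and 4 fell in knockout livers, with a median of −0.41 in place of −0.13. Slc51b, a basolateral bile acid exporter, rose by 2.72 ± 0.31 in knockout (adjusted p = 8.63e-06) and by 2.81 ± 0.31 in wild type livers (adjusted p = 2.39e-06), whereas Cyp8b1, the sterol 12-alpha-hydroxylase, fell by 2.06 ± 0.49 in knockout (adjusted p = 0.0052) and fell by 2.49 ± 0.49 in wild type livers (adjusted p = 0.000669).

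Genes of HDL formation and uptake moved in both directions, with more called lower than higher. Of 16 tested, 3 rose and 7 fell with ligation in knockout livers, and 3 rose and 8 fell in wild type livers, with median log2 differences of −0.39 in knockout and −0.55 in wild type livers. With libraries BDL_KO_2248 and BDL_KO_2359 left out, 4 rose and 7 fell in knockout livers. Pdzk1, the adaptor that holds Scarb1 at the hepatocyte surface, measured 5.59 ± 1.0 FPKM in BDL_KO and 3.44 ± 0.55 in BDL_Wt, against 7.74 ± 1.42 in Sham_KO and 8.87 ± 0.84 in Sham_Wt (SD, n = 5 each). In wild type livers Pdzk1 fell by 1.26 ± 0.14 (limma adjusted p = 2.47e-06), opposite to Scarb1, and after ligation it was higher in knockout livers by 0.62 ± 0.14 (adjusted p = 0.00842). Apoa2, an HDL apolipoprotein, fell by 1.29 in knockout livers and fell by 1.67 in wild type livers.

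Genes that supply the lipids and place the exporters moved both ways. Of 14 phosphatidylcholine synthesis genes, 4 rose and 1 fell with ligation in knockout livers, and 4 rose and 4 fell in wild type livers, against 5 higher and 2 lower in knockout livers without libraries BDL_KO_2248 and BDL_KO_2359. Pemt, which makes phosphatidylcholine by methylation, was higher after ligation in knockout than in wild type livers, at 176 ± 48 FPKM in BDL_KO and 94.6 ± 15.9 in BDL_Wt (SD, n = 5 each; log2 difference 0.86 ± 0.17, limma adjusted p = 0.0034, and 0.60 without that pair, adjusted p = 0.0265). Of 15 genes of cellular cholesterol handling, 3 rose and 0 fell in knockout livers, and 4 rose and 2 fell in wild type livers, with 4 higher and 1 lower in knockout livers without the pair. Soat2, the cholesterol esterifying enzyme of hepatocytes, was lower after sham surgery in knockout livers, at 14.8 ± 2.0 FPKM in Sham_KO and 26 ± 1.3 in Sham_Wt (−0.79 ± 0.21, adjusted p = 0.0484). Of 18 genes of canalicular trafficking and membrane skeleton, 3 rose and 2 fell in knockout livers, and 8 rose and 3 fell in wild type livers, with 6 higher and 3 lower in knockout livers without the pair. Ezr, encoding ezrin, which is typical of cholangiocytes, rose by 1.13 in knockout livers (adjusted p = 0.000223) and by 1.60 in wild type livers (adjusted p = 3.06e-06), while Rdx, encoding radixin of the hepatocyte canaliculus, measured 44.7 ± 7.7 FPKM in BDL_KO and 38.7 ± 3.8 in BDL_Wt, against 49.7 ± 4.8 in Sham_KO and 50.6 ± 3.5 in Sham_Wt. Ezrin moved with the cholangiocyte marker sums given above, and their part was not tested.

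**Figure D4:**
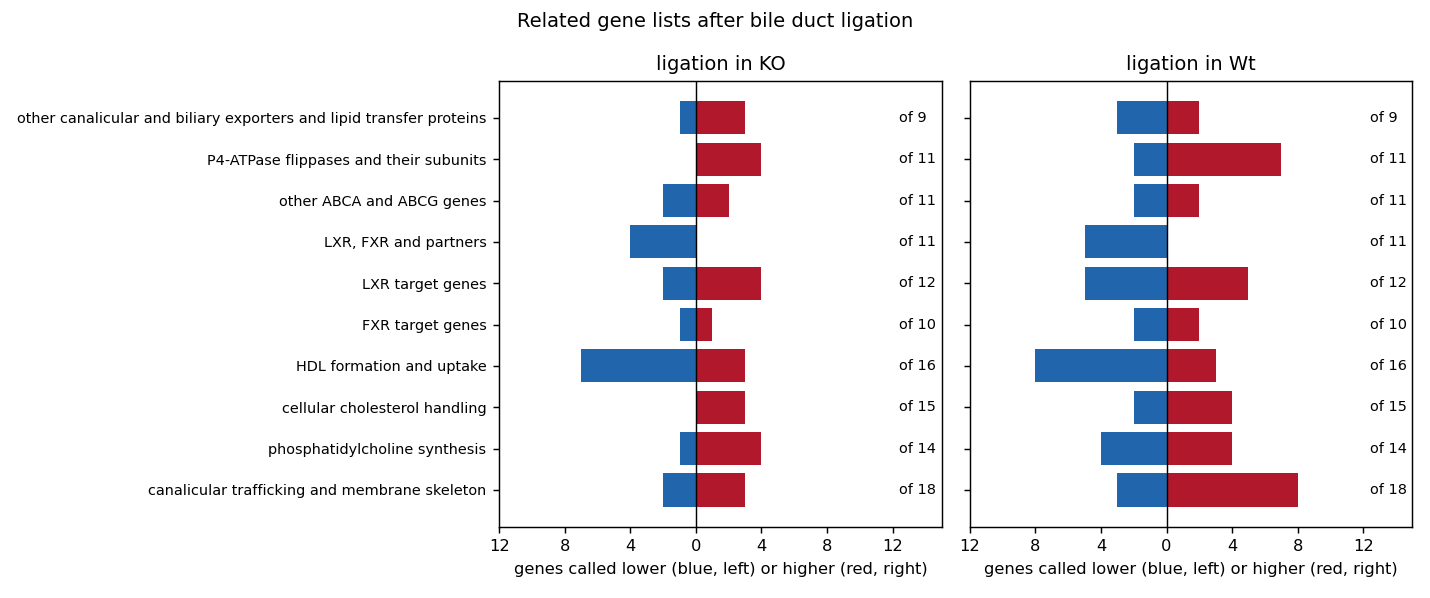
Number of genes in each related list that were called lower (blue bars, left of 0) or higher (red bars, right of 0) with ligation in knockout livers (left panel) and in wild type livers (right panel), with the number tested at the right. LXR, FXR and partners have no bar to the right in either panel, and the HDL list has 7 lower in knockout and 8 lower in wild type livers. Some genes are on several lists and are counted in each. Over all tested genes, 12.3% were called higher and 12.9% lower in knockout livers, and 18.1% higher and 17.5% lower in wild type livers.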

How the data were processed

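The authors deposited 1 table of FPKM values per gene for 20 libraries, and every per-sample column was used. The submitters' processing notes name, without role or order, DESeq2 1.20.0, featureCounts 1.5.0-p3, HISAT2 2.0.5, fastp and CASAVA 1.8, with the builds mm10 and GRCm38. Multiplied by GENCODE M21 exonic lengths, 98.15 to 98.5% of low values fell on whole steps of 1 fragment within 0.02. Fragments, and the library size used for scaling, could therefore be recovered. Assigned fragments were 86.92 to 134.3% of that size, so it was not the assigned depth. The median ratio of a library to the geometric mean of all 20 was 1.007 throughout, so the deposited values had already been equalised, as median-ratio scaling does. From the FPKM, log2(FPKM + 0.5) of genes with at least 0.5 FPKM in 5 libraries was fitted with limma 3.58.1 in R 4.3.3 (trend, robust, 1 mean per group, all 20 libraries), with Benjamini-Hochberg adjustment over 14059 genes at 0.05. Such differences understate changes of low genes. Ratios were tested by exact permutation. The script was tested on simulated data. Up to 4 called genes per list and comparison were taken by size, or the 2 most abundant where fewer than 2 were called, and the text describes a part of them. The members, lists and tests were chosen with earlier results of these data known. No symbol matched Stard1. Among the genes most similar to Scarb1, 1 is not reported here. Tables were handled in Python 3.11.15 (numpy 2.4.6, pandas 2.3.3) and drawn with matplotlib 3.10.9.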

Additional observations from a re-analysis of the deposited data

Results flagged for a closer look

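Of 24 sets of 5 values (6 genes in 4 groups), 3 held a library farther from the rest than Dixon's critical value of 0.71 allows, where chance gives about 1 in 20. Atp8b1 was 14.74 FPKM in BDL_KO_2248, with the next value at 8.495 and a gap of 0.784 of the range. Abca1 was 12.23 FPKM in BDL_Wt_2240, with the next at 21.11 and a gap of 0.777 of the range. Abcb4 was 46 FPKM in Sham_KO_2349, with the next at 38.04 and a gap of 0.727 of the range.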

How the results depend on the processing

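No paired analysis was possible because each library carries its own number and no number is shared between groups. In wild type livers the fall of Abcg5 and of Abcg8 passed the test under all 36 alternatives. The rise of Abcb4 there passed under 34 and was lost only within each library type alone, as was the rise of Atp8b1 in knockout livers. Median-ratio scaling, counted among the 36, only repeats the main fit, because the deposited libraries already had equal median ratios. Each member value rests on at least 271 fragments. The fit of only the groups compared has no form for the interaction. The causes of the changes below were not tested.

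Rescaling to TPM moved the median log2 difference of all genes by 0.167 for ligation in knockout livers and 0.29 in wild type livers, and by −0.253 and −0.122 for knockout after ligation and after sham surgery; rescaling to total fragments moved the wild type ligation median by 0.159 and the median of knockout after ligation by −0.175. The share of calls that were higher was 77% as TPM and 57.8% with total fragments, against 48.8% as deposited, for ligation in knockout livers; 82.8% and 71.2% against 50.8% in wild type livers; 6.96% and 11.4% against 39.2% for knockout after ligation; and 10.5% and 24.1% against 44% for knockout after sham surgery.

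All genes called numbered 3534 for ligation in knockout livers, 5011 in wild type livers, 1241 for knockout after ligation, 418 for knockout after sham surgery and 53 for the interaction. For knockout after sham surgery the count was 208 without a filter, 190 as TPM, 187 with total fragments, 1234 with array weights, 821 with only the groups compared, 1041 without BDL_KO_2248 and BDL_KO_2359, 0 within Y-linked libraries and 7 within Xist libraries. For the interaction it was 9 without a filter, 9 as TPM, 21 with total fragments, 142 with array weights, 22 with voom, 178 without BDL_KO_2248 and BDL_KO_2359, 2 within Y-linked libraries and 0 within Xist libraries. With only the groups compared it was 1694 for ligation in knockout livers and 283 for knockout after ligation. Within Y-linked libraries it was 1072 for ligation in knockout livers, 3126 in wild type livers and 308 for knockout after ligation, and within Xist libraries 550, 911 and 8 in that order. Leaving out 1 library gave 8 to 151 calls for the interaction, 618 to 2061 for knockout after ligation and 155 to 659 for knockout after sham surgery.

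Members called after sham surgery numbered 1 with array weights, 1 without BDL_KO_2248 and BDL_KO_2359 and 2 with only the groups compared, against 0. For ligation in knockout livers they numbered 1 with only the groups compared and 0 within either library type, against 2, and in wild type livers 2 within either library type, against 4. Leaving out 1 library gave 0 to 1 for the interaction and 0 to 2 for knockout after ligation.

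Some uncalled differences changed sign. For ligation in knockout livers, Abcb4 was 0.03928 as TPM, 0.001477 with quantile normalization, 0.2327 with array weights and 0.3238 without BDL_KO_2248 and BDL_KO_2359, and −0.3373 to 0.09815 with 1 library left out. Abcg5 was 0.14 as TPM, 0.01809 with total fragments, 0.002927 with quantile normalization and 0.2998 within Y-linked libraries, and −0.2422 to 0.1613 with 1 library left out. For knockout after ligation, in the order TPM, total fragments, array weights and without BDL_KO_2248 and BDL_KO_2359, Atp8b1 was −0.09953, −0.02761, −0.03232 and −0.0515, Abca1 was −0.1402, −0.06795, −0.1528 and −0.1408, and Scarb1 was −0.2722, −0.198, −0.09368 and −0.2111. Within Y-linked libraries Atp8b1 was −0.08934 and Abca1 −0.29, and Scarb1 was −0.09109 with quantile normalization and −0.1669 within Xist libraries. With 1 library left out they ranged from −0.003096 to 0.2639 for Atp8b1, −0.05071 to 0.2847 for Abca1 and −0.07753 to 0.151 for Scarb1. The interaction of Scarb1 was −0.02925 as TPM, −0.02065 with total fragments, −0.1078 within Xist libraries and −0.1135 without BDL_KO_2248 and BDL_KO_2359. For ligation in wild type livers, Abca1 was −0.08858 within Xist libraries and −0.007839 to 0.2331 with 1 library left out. Of 89 results of genes named from the lists, Nr1h3 turned to 0.03641 as TPM and Rxra to 0.04549 with quantile normalization, both for ligation in wild type livers, and both were called lower as deposited.

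Of the log2 ratios, groups of 2 and 3 libraries cannot reach an exact p under 0.05, so no ratio passed within a library type. For ligation within Y-linked libraries, Abcg5 to Abcg8 was higher by 0.5913 in knockout and 0.7647 in wild type livers, and Atp8b1 to Tmem30a by 0.961 and 0.751. Within Xist libraries these were 0.3225, 0.5283, 1.158 and 0.9017 in that order. With 1 library left out, Abcg5 to Abcg8 ranged from 0.4429 to 0.5931 for ligation in knockout livers. The uncalled genotype difference of that ratio after sham surgery was −0.03496 within Y-linked libraries and −0.06612 to 0.06981 with 1 library left out, and after ligation it was 0.05024 without BDL_KO_2248 and BDL_KO_2359. Atp8b1 to Tmem30a, knockout after ligation, was 0.006072 with quantile normalization and 0.09493 within Xist libraries.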

Other observations

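In sham libraries of both genotypes, the sterol exporter was higher in the libraries with Xist than in those with Y-linked transcripts. Abcg5 averaged 30.5 FPKM in the 2 Xist libraries of Sham_KO and 17.1 in its 3 Y-linked libraries, and 48.4 in the 3 Xist libraries of Sham_Wt and 32.6 in its 2 Y-linked libraries. Abcg8 averaged 21.7 FPKM in the Xist libraries and 16.3 in the Y-linked libraries of Sham_KO, and 38.8 in the Xist libraries and 30.5 in the Y-linked libraries of Sham_Wt. Atp8b1 had the opposite order, at 4.33 FPKM in the Xist libraries and 5.32 in the Y-linked libraries of Sham_KO, and 5.4 in the Xist libraries and 7.89 in the Y-linked libraries of Sham_Wt. Ligated wild type libraries stood in the same order, with Abcg5 at 17.8 FPKM in the Xist libraries and 10.6 in the Y-linked libraries, Abcg8 at 9.67 in the Xist libraries and 5.29 in the Y-linked libraries, and Atp8b1 at 6.81 in the Xist libraries and 8.28 in the Y-linked libraries. Ligated knockout libraries stood the other way for all 3 genes, with Abcg5 at 21.1 FPKM in the Xist libraries and 24.6 in the Y-linked libraries, Abcg8 at 12.5 in the Xist libraries and 15.8 in the Y-linked libraries, and Atp8b1 at 9.95 in the Xist libraries and 7.78 in the Y-linked libraries. These differences were not tested.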
